A study of Homo sapiens with 32 samples.

Results

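The genes described here build the contacts between epithelial cells and set the apical and basal sides of the cell. They were 39 genes fixed by name: 8 claudins, 5 other membrane proteins of the tight junction, 3 proteins of its cytoplasmic plaque, 7 genes of the adherens junction, 8 of the desmosome, 6 polarity genes, and ANK3 and EPCAM of the lateral membrane. Each name was matched to its Ensembl identifier in a count table of 60107 rows, and all 39 had counts. Values are reads of QuantSeq 3′ mRNA sequencing, which counts the 3′ ends of transcripts, so a count does not scale with transcript length. The unit is CPM, which sets each count against the effective size of its library (TMM factors over the 28 libraries used).

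The cells were Caco-2, an epithelial line from a human colon adenocarcinoma, in 3 versions. The line labelled cl.21 is taken here as the Caco-2-HIF1A-null line of the study's methods, a single clone selected after lentiviral delivery of inducible Cas9 and a guide against HIF1A. The line labelled e.v. is taken as the control with inducible Cas9 and an empty vector, and WT as cells with neither vector. Each line was grown in 3 ways. In co-culture, coverslips with cells were laid face down on agar (YCFAG, the growth medium of the bacterium) containing Faecalibacterium prausnitzii strain A2-165, in the HoxBan tube ("Human-oxygen Bacteria-anaerobic"), with oxygen entering from above. In monoculture the same tube held no bacteria. The label 2D, which the study's methods do not describe, is taken as culture without the tube. Every group had 3 libraries except WT 2D, which had 4. Nothing in the labels ties a library to a separate culture or day, so p-values measure the spread between libraries, which may be technical. Because cl.21 is 1 clone, loss of HIF1A and the history of the clone cannot be told apart, and the tube, its medium, the coverslip and the oxygen supply likewise cannot be told apart in monoculture against 2D.

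Tight junctions close the gap between neighbouring epithelial cells: claudins form the strands, occludin-family proteins sit at cell corners and strands, and plaque proteins tie them to actin. Adherens junctions and desmosomes hold the cells together through cadherins, the first anchored to actin by catenins, the second to keratin filaments by desmoplakin and plakophilins. The Par, Crumbs and Scribble complexes divide the apical from the basolateral membrane and position the junctions between them. In the intestine these structures set how much water, ions and microbial material pass between the cells.

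The libraries held 4144373 to 6686797 counts, with a median of 4917010, and 12849 genes passed the filter on low counts, the 39 members among them. The share of counts from mitochondrial genes was between 4.49% and 23.6% and varied between cultures: group means were 16.3% in cl.21, 15.0% in e.v. and 15.6% in WT co-culture, 12.1%, 15.2% and 11.1% in the same lines in monoculture, and 8.69%, 9.47% and 7.60% in 2D. Each 2D mean was raised by 1 library, at 15.3% in cl.21 (library 1), 17.1% in e.v. (library 26) and 14.1% in WT (library 12). The other 2D libraries had 4.49% to 6.32%. With that share as a covariate, all of the 41 member calls described below remained calls, and the number of members called lower in monoculture than in 2D was 7 in cl.21, 7 in e.v. and 5 in WT, against 3, 4 and 3 without it. Calls over all genes rose too. Of the 12849 genes, 1685, 2047 and 1658 were lower in these lines with the covariate, against 1289, 1455 and 1104 without it. HIF1A transcripts were counted in every library, at 82.8 to 216 CPM in cl.21, 148 to 351 CPM in e.v. and 131 to 212 CPM in WT. In the test described below, HIF1A was called lower in cl.21 than in e.v. in 2D (log2 fold change -0.89). It had no such call in monoculture (-0.55) or co-culture (-0.68). It was called higher in e.v. than in WT (0.40), and higher in monoculture than in 2D in cl.21 (1.02) and e.v. (0.68). A 3′ tag does not read the edited site, so these levels do not check the knockout. Markers of intestinal epithelium KRT8, KRT18, KRT19 and VIL1 were abundant, whereas GPA33, LGALS4 and CDX1 were near 0. Of markers of other cells, PTPRC, CD3E and CD79A had 3 to 13 counts over the 28 libraries, but the immune list also held CD68 with 198, CD14 with 838 and LYZ with 2546 counts. In the list for fibroblasts and endothelium, CDH5, COL1A2 and VWF had 2 to 9 counts, whereas PECAM1 had 562, COL3A1 848, PDGFRB 943, COL1A1 3967 and PDGFRA 4275. Whether any of these moved the junction genes was not tested.

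The members differed widely in level. EPCAM, a homophilic adhesion molecule of the lateral membrane, was highest at 1439 CPM as a mean of the 28 libraries. DSP (desmoplakin, 700.1 CPM), CDH1 (E-cadherin, 672 CPM) and CXADR (a tight junction immunoglobulin-family protein, 392 CPM) came next. DSC3, a desmocollin typical of stratified epithelia, was lowest at 1.08 CPM and 151 counts in all. CLDN23 at 1.60 CPM, SCRIB at 3.49 CPM and CLDN15 at 6.33 CPM were also sparse. The members with the largest coefficient of variation over the 28 libraries were CLDN2 at 84.8%, SCRIB at 83.0%, DSC3 at 82.2% and CLDN15 at 60.2%, and those with the smallest were NECTIN2 at 15.0%, JUP at 15.3% and PARD3 at 15.4%. In all, 23 of the 39 members passed the test in at least 1 of 10 comparisons and 16 passed in none. The share of all genes that passed in at least 1 was not counted, so 23 is no result about junction genes as a set. In e.v. monoculture against 2D alone, 10.3% of all genes tested were higher and 11.3% lower. The test throughout was edgeR's quasi-likelihood test, two-sided, in 1 fit over the 28 libraries, with p-values adjusted by Benjamini-Hochberg over the 12849 genes and a threshold of 0.05.

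**Figure D1:**
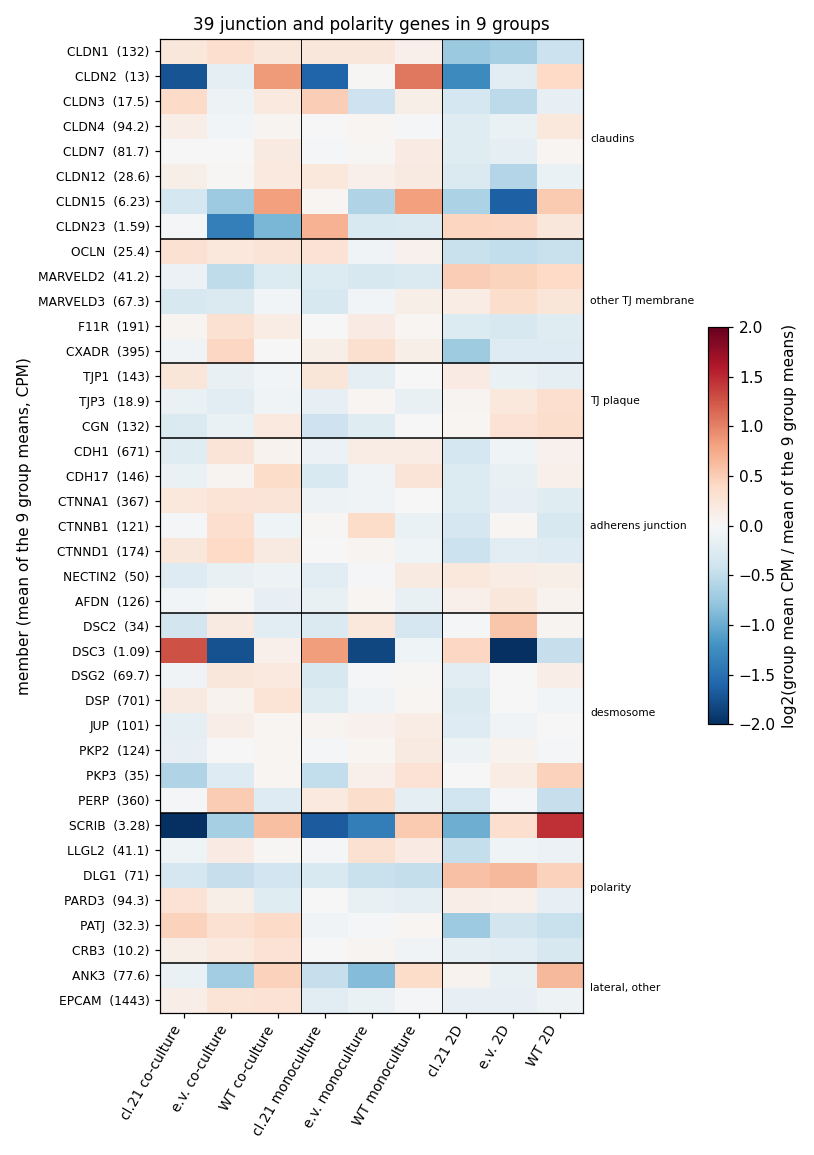
Mean level of each of the 39 members (rows, with the mean of the 9 group means in CPM in brackets) in each of the 9 groups (columns), as the log2 ratio to the mean of the 9 group means; colours end at a ratio of 2 in either direction on the log2 scale, beyond which they do not change. CLDN2, SCRIB, CLDN15 and ANK3 vary mainly between lines, DLG1 and MARVELD2 between 2D and the HoxBan tube, and most adherens junction and desmosome genes vary little.

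The first question was what the HoxBan tube without bacteria did to these genes. DLG1 (Discs large, a scaffold of the Scribble complex at the lateral membrane) and MARVELD2 (tricellulin, which seals the points where 3 cells meet) fell in all 3 lines. SCRIB, the scaffold that gives that complex its name, fell in e.v. and WT. CLDN1, a barrier-forming claudin, and CXADR rose in cl.21 and e.v. Among the 39 members, 5 rose and 3 fell in cl.21 monoculture, where 10.1% and 10% of all genes tested did so. In e.v., 4 rose and 4 fell, against 10.3% and 11.3% of all genes. In WT, 0 rose and 3 fell, against 6.19% and 8.59% of all genes. There 7 members were at an unadjusted p under 0.05, beside 3628 of the 12849 genes tested. DESeq2 called 1 member (CXADR) higher in WT, beside 920 of 13796 genes. The median log2 fold change of the members was 0.17 in cl.21, 0.09 in e.v. and 0.16 in WT, beside medians of -0.02, -0.01 and 0.01 over all genes tested. The shares of members called were near those of all genes, and the results below are about single genes.

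**Figure D2:**
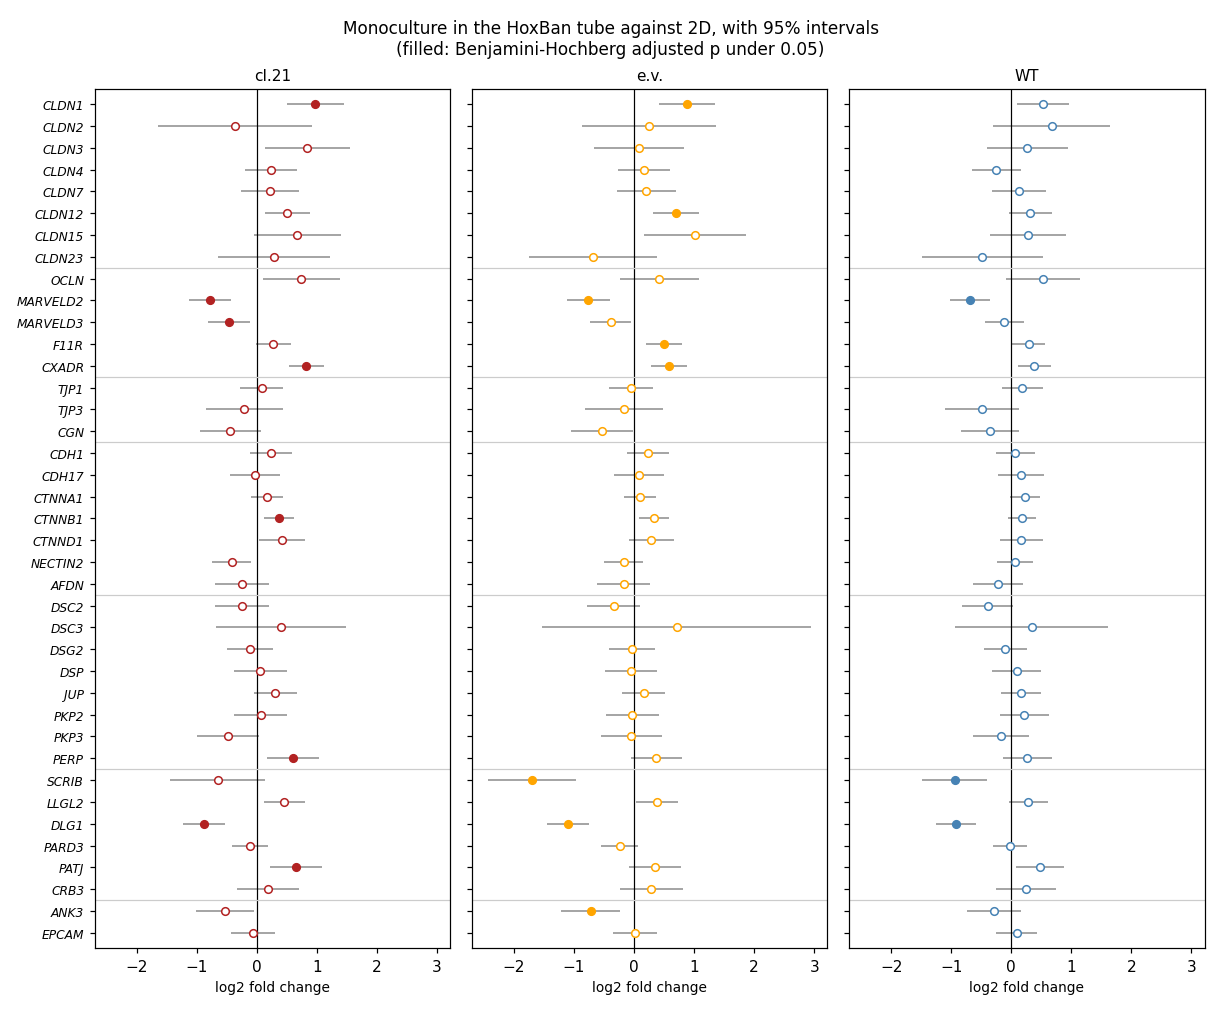
Log2 fold change of monoculture against 2D (horizontal axis) for the 39 members (vertical axis, in the order of the role groups) in cl.21, e.v. and WT, with 95% intervals; filled points passed the test. DLG1 and MARVELD2 are filled and left of 0 in all 3 panels, and CLDN1 and CXADR are filled and right of 0 in cl.21 and e.v.

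DLG1 had 63.3, 54.8 and 54.6 CPM in cl.21 monoculture, against 114, 109.9 and 96.0 CPM in cl.21 2D. In e.v. it had 46.3, 48.1 and 61.8 CPM in monoculture, against 109.5, 131 and 94.5 CPM in 2D. In WT it had 48.0, 50.0 and 55.2 CPM in monoculture, against 100.4, 103, 92.0 and 93.4 CPM in 2D. Every monoculture library was below every 2D library of its line. Fold changes on the log2 scale were -0.89 in cl.21 (SE 0.17, adjusted p = 0.000514), -1.10 in e.v. (SE 0.17, adjusted p = 5.07e-05) and -0.93 in WT (SE 0.16, adjusted p = 0.000298), a level 1.85-, 2.14- and 1.90-fold lower. Co-culture levels were 37.8 to 65.6 CPM, beside 46.3 to 63.3 CPM in monoculture. Over the 18 libraries of the tube DLG1 had 37.8, 53.9 and 65.6 CPM (lowest, median and highest), against 92.0, 101.7 and 131 CPM over the 10 libraries in 2D.

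MARVELD2 had 37.2, 34.1 and 30.6 CPM in cl.21 monoculture, against 64.0, 58.9 and 51.9 CPM in cl.21 2D. It had 37.8, 27.4 and 34.3 CPM in e.v. monoculture, against 57.9, 59.8 and 51.1 CPM in e.v. 2D. In WT it had 28.7, 37.8 and 34.7 CPM in monoculture, against 55.0, 53.8, 55.7 and 53.5 CPM in 2D. The 2 sides did not overlap in any line. On the log2 scale the difference was -0.78 in cl.21 (SE 0.17, adjusted p = 0.00194), -0.76 in e.v. (SE 0.17, adjusted p = 0.00241) and -0.69 in WT (SE 0.16, adjusted p = 0.0047). Over all libraries of the tube the lowest, median and highest level was 23.6, 34.2 and 42.0 CPM, against 51.1, 55.3 and 64.0 CPM in 2D. MARVELD2 and DLG1 were the 2 members whose 18 HoxBan libraries were all below the 10 libraries in 2D, a pattern of 4.26% of all genes tested, and 0 members lay wholly above, against 2.56% of all genes.

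MARVELD2 and OCLN (occludin, of the same protein family) lie side by side on chromosome 5, on the same strand and 47962 bases apart. OCLN passed in no line. It had 34.5, 23.7 and 35.2 CPM in cl.21 monoculture, against 20.9, 18.1 and 17.1 CPM in cl.21 2D. It had 13.9, 33.9 and 24.7 CPM in e.v. monoculture, against 17.3, 17.5 and 19.1 CPM in e.v. 2D, and 13.3, 38.5 and 29.1 CPM in WT monoculture, against 26.5, 14.4, 18.7 and 14.9 CPM in WT 2D. The libraries of the tube were widely spread and, in e.v. and WT, straddled those in 2D. The log2 fold changes of 0.74, 0.42 and 0.53 (SE 0.31, 0.32 and 0.30) did not pass, with adjusted p = 0.0998 in cl.21, 0.38 in e.v. and 0.253 in WT, although OCLN was called higher in cl.21 in the fit with only the groups compared. MARVELD3, the remaining member of that family, had 57.9, 53.3 and 51.0 CPM in cl.21 monoculture, against 64.7, 82.4 and 77.8 CPM in cl.21 2D. Its log2 fold change there was -0.47 (SE 0.17, adjusted p = 0.0493), a call lost when any of 5 of the 6 libraries was left out, with an adjusted p of up to 0.174 without library 2 of cl.21 2D, and in e.v. and WT it was -0.39 and -0.12 without passing.

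**Figure D3:**
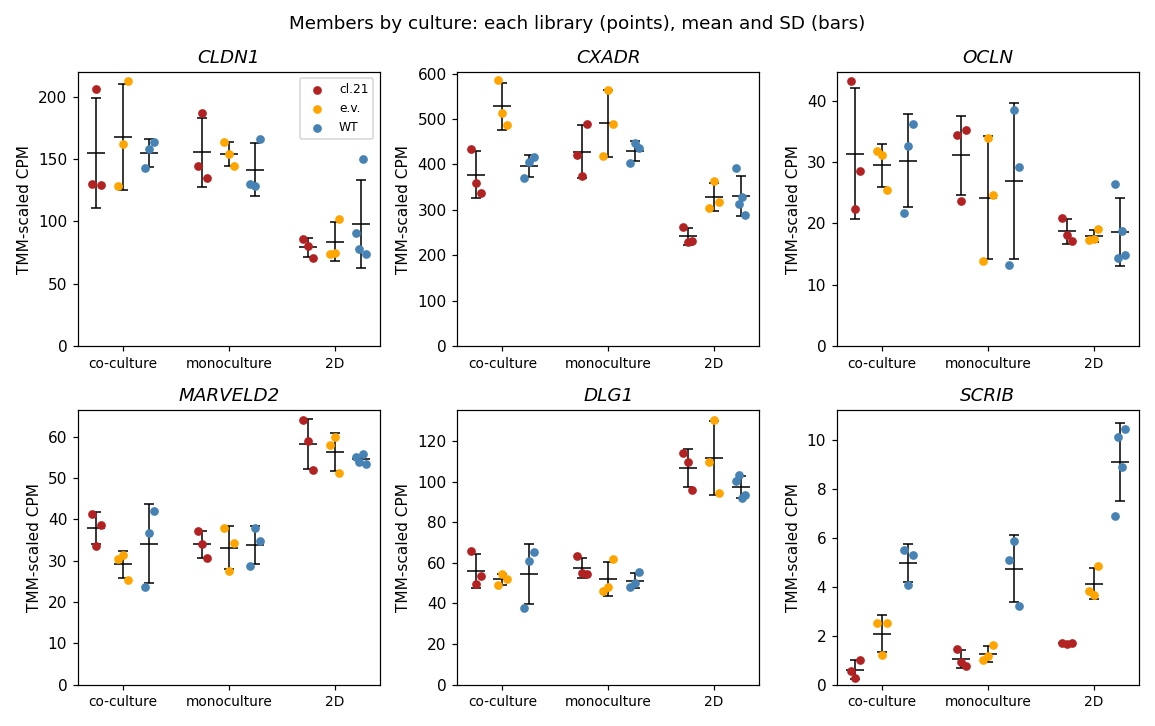
TMM-scaled CPM of CLDN1, CXADR, OCLN, MARVELD2, DLG1 and SCRIB in each library (points, coloured by line) of co-culture, monoculture and 2D, with the mean and SD of each group (bars). For MARVELD2 and DLG1 the 18 HoxBan libraries all lie below the 10 libraries in 2D; for SCRIB the 9 cl.21 libraries all lie below the 10 WT libraries.

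SCRIB was sparse, at 512 counts over the 28 libraries. It had 0.994, 1.16 and 1.63 CPM in e.v. monoculture, against 3.83, 3.67 and 4.86 CPM in e.v. 2D, with 17 counts in the 3 monoculture libraries and 72 in the 3 libraries in 2D. In WT it had 5.09, 5.86 and 3.21 CPM in monoculture, against 6.89, 10.1, 8.88 and 10.4 CPM in 2D. The groups did not overlap in either line. On the log2 scale SCRIB changed by -1.70 in e.v. (SE 0.36, adjusted p = 0.00118) and -0.95 in WT (SE 0.27, adjusted p = 0.0165), the second with an adjusted p of 0.115 without library 29 of WT monoculture and lost as well without a filter. In cl.21 it had 1.44, 0.903 and 0.761 CPM in monoculture, against 1.68, 1.65 and 1.70 CPM in 2D. These groups did not overlap either, but they rest on 4 to 9 counts per library in monoculture and 11 to 13 in 2D. The SCRIB log2 fold change in cl.21 was -0.65 (SE 0.39) with adjusted p = 0.282. LLGL2, the member that completes the Scribble complex, had log2 fold changes of 0.46, 0.38 and 0.28 in cl.21, e.v. and WT, none of which passed.

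CLDN1 had 144, 187 and 135 CPM in cl.21 monoculture, against 86.1, 80.6 and 70.7 CPM in cl.21 2D. In e.v. it had 164, 154 and 144 CPM in monoculture, against 74.3, 74.8 and 101.7 CPM in 2D. Neither pair of groups overlapped. CLDN1 had a log2 fold change of 0.97 in cl.21 (SE 0.23, adjusted p = 0.00347), or 1.96-fold, and 0.88 in e.v. (SE 0.23, adjusted p = 0.00697), or 1.84-fold. In WT the 3 monoculture libraries had 130.2, 128 and 166 CPM, against 90.9, 78.3, 150.1 and 73.8 CPM in 2D, where library 12 reached into the monoculture range. The WT log2 fold change of 0.53 (SE 0.21) had adjusted p = 0.0969.

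CXADR had 421, 375 and 489.6 CPM in cl.21 monoculture, against 263, 229.9 and 233 CPM in cl.21 2D. It had 418, 564 and 489.9 CPM in e.v. monoculture, against 305, 363 and 318 CPM in e.v. 2D, and 404, 448 and 437 CPM in WT monoculture, against 392, 313, 328 and 289 CPM in WT 2D. The groups did not overlap in any line. CXADR had a log2 fold change of 0.82 in cl.21 (SE 0.14, adjusted p = 0.000213), 0.58 in e.v. (SE 0.14, adjusted p = 0.00499) and 0.38 in WT (SE 0.13, adjusted p = 0.0553). CXADR stood past the threshold in WT with DESeq2, with RLE factors and with the mitochondrial share as a covariate.

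Other members passed in 1 line each. In e.v., CLDN12, a widely expressed claudin, had 25.6, 30.9 and 35.9 CPM in monoculture, against 18.8, 17.5 and 20.6 CPM in 2D, a log2 fold change of 0.70 (SE 0.19, adjusted p = 0.00942, or 0.0562 without library 25 of e.v. monoculture). F11R (the junctional adhesion molecule JAM-A) had 206, 229.6 and 209 CPM in e.v. monoculture, against 137, 163 and 158 CPM in e.v. 2D. That log2 fold change of 0.50 (SE 0.15, adjusted p = 0.0152) lost its call without library 15 of e.v. monoculture or library 23 of e.v. 2D, with an adjusted p of up to 0.0834. ANK3 (ankyrin-G, a membrane-skeleton adaptor of the lateral membrane) had 31.0, 44.6 and 52.0 CPM in e.v. monoculture, against 71.6, 67.6 and 70.9 CPM in e.v. 2D. This log2 fold change was -0.72 (SE 0.24, adjusted p = 0.0319) and did not pass without any of 5 of the 6 libraries, with an adjusted p of up to 0.141 without library 11 of e.v. monoculture.

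In cl.21, PATJ (a scaffold of the Crumbs complex) had 32.9, 30.5 and 29.3 CPM in monoculture, against 17.5, 19.7 and 21.6 CPM in 2D, with no overlap. PATJ had a log2 fold change of 0.65 (SE 0.21, adjusted p = 0.0294), lost without any of 4 of the 6 libraries and at most 0.113 without library 1 of cl.21 2D. CTNNB1 (β-catenin) had 133, 109 and 128 CPM in cl.21 monoculture, against 93.0, 94.0 and 99.5 CPM in cl.21 2D. A log2 fold change of 0.37 (SE 0.12, adjusted p = 0.0313) was lost without any of 5 of the 6 libraries, with an adjusted p of 0.139 without library 4 of cl.21 monoculture, and was 0.447 without a filter and 0.0713 with only the groups compared. PERP, a desmosomal membrane protein, had 335, 609 and 296 CPM in cl.21 monoculture, against 247, 221 and 349 CPM in cl.21 2D, and these groups overlapped. The PERP log2 fold change of 0.60 (SE 0.21, adjusted p = 0.0437) rested on library 7 of cl.21 monoculture. Without that library it was 0.21, with adjusted p = 0.481, and the call was also lost without library 1 or library 2 of cl.21 2D. PERP was lost as well with only the groups compared, PATJ and F11R (in e.v.) without a filter, and MARVELD3 without a filter and with RLE or upper-quartile factors.

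For the claudins CLDN3, CLDN4 and CLDN7, the plaque genes TJP1, TJP3 and CGN, the cadherins CDH1 and CDH17 and the desmosome genes DSP, DSG2, JUP and PKP2, monoculture against 2D passed in no line. CDH1 showed the spread of such a gene: 630.1, 582 and 638 CPM in cl.21 monoculture, against 557, 523 and 492 CPM in cl.21 2D, a log2 fold change of 0.23 that did not pass (95% interval -0.11 to 0.58). DSP, the plakin that links desmosomes to keratin, had a log2 fold change of 0.06 in cl.21 (95% interval -0.38 to 0.49), -0.06 in e.v. (-0.49 to 0.38) and 0.09 in WT (-0.32 to 0.50). CGN (cingulin, a plaque protein bound to actomyosin) had -0.44, -0.53 and -0.35, none past the threshold.

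Of 78 further genes of cell junctions and polarity listed for this comparison, 47 had enough counts to be tested. In cl.21 monoculture 4 rose and 8 fell, in e.v. 3 rose and 11 fell, and in WT 1 rose and 9 fell, beside the shares of all genes given above (10.1% and 10% in cl.21, 10.3% and 11.3% in e.v., 6.19% and 8.59% in WT). NECTIN1, which joins neighbouring cells at the adherens junction, fell in all 3 lines (log2 fold change -1.17, -0.85 and -0.85 in cl.21, e.v. and WT), as did CLDN19 (-1.40, -1.37 and -1.39) and the scaffold MAGI3 (-0.83, -0.85 and -0.87). LLGL1, a paralogue of LLGL2, fell by 0.65, 0.94 and 0.64 on the log2 scale, DLG5 by 1.01, 1.09 and 0.91, and the polarity kinase STK11 by 0.90, 0.78 and 0.68. Other relatives of DLG1 and SCRIB had no call: DLG3 had log2 fold changes of -0.10, -0.24 and 0.08, and ERBIN -0.48, -0.47 and -0.28. ESAM, an immunoglobulin-family adhesion protein (1.82 and 1.91), the actin linker VCL (0.71 and 0.54) and VEZT (0.86 and 0.72) rose in cl.21 and e.v. A separate list held 10 transcription factors and mesenchymal genes of epithelial-mesenchymal transition, of which 3 had enough counts to be tested. SNAI1, a transcription factor best known as a repressor of CDH1, rose in all 3 lines. It had 74.7, 77.4 and 88.9 CPM in cl.21 monoculture, against 10.8, 9.54 and 9.57 CPM in cl.21 2D. Its log2 fold change was 3.01 in cl.21 (SE 0.24), 2.75 in e.v. (SE 0.24) and 1.97 in WT (SE 0.21), with adjusted p = 4.16e-09, 4.45e-08 and 7.69e-07. VIM was sparse, at 265 counts over the 28 libraries. It rose in cl.21 (2.25, adjusted p = 0.0108), a value that rests on few counts, and had 0.86 and 0.28 in e.v. and WT without a call. FN1 had 0.35, 0.56 and 0.10 without a call. The log2 fold change of CDH1 in those lines was 0.23, 0.23 and 0.07, with no call.

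Promoter windows are shown for MARVELD2 and its neighbour OCLN, for DLG1, and for CLDN1 as a member that rose. These 4 were picked from the matched members with their values known, because the study concerned HIF1A and because SNAI1 moved in the same comparison. They are 250 bases before the transcription start, 5′ to 3′ on the gene's strand, from RefSeq on GRCh38.p14. Capitals mark the HIF core motifs ACGTG and GCGTG and the E-box CACCTG that SNAI1 binds, each searched on both strands.
MARVELD2, chr5:69414866-69415115, + strand: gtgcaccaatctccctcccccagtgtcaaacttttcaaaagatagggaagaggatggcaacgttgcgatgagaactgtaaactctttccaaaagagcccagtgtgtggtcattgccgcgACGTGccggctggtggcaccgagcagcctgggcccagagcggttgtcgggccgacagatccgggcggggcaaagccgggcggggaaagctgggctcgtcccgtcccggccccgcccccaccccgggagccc
OCLN, chr5:69492297-69492546, + strand, first of 2 starts: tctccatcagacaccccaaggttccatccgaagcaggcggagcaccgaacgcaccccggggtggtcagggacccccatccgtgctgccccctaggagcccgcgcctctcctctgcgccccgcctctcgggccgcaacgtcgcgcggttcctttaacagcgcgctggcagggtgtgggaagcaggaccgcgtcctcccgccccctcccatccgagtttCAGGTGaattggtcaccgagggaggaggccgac
CLDN1, chr3:190322447-190322696, - strand: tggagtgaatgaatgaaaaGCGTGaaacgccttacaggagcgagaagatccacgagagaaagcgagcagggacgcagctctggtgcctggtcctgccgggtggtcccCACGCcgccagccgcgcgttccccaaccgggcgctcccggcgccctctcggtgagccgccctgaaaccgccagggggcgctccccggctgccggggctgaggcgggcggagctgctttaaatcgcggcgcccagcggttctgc
DLG1, chr3:197298136-197298385, - strand, first of 5 starts: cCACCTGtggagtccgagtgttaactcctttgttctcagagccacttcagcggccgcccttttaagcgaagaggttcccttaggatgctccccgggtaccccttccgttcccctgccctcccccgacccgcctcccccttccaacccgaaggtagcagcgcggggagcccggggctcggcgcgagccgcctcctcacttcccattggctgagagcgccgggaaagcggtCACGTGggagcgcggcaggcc
MARVELD2 held 1 ACGTG, CLDN1 held GCGTG once on each strand, OCLN held CACCTG on the opposite strand, and DLG1 held CACCTG once and a palindromic site that reads ACGTG on both strands. Of 35116 RefSeq promoter windows of this length, 18.5% held ACGTG, 32.2% GCGTG and 17.5% CACCTG. Sequences were matched for 26 of the 39 members, in 45 windows. Of these windows 10 held ACGTG, 11 GCGTG and 13 CACCTG, the counts to set beside those shares. Counted by member, 10 of the 26 held ACGTG, 7 GCGTG and 12 CACCTG in at least 1 window. A member with several windows has more chances of a match, so these counts are not comparable with the shares. A match is a description of the letters only.

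The second question was what F. prausnitzii added to the tube. Averaged over the 3 lines, 1 member rose and 0 fell in co-culture against monoculture, where 0.817% and 1.18% of all genes tested did so. At an unadjusted p under 0.05 were 7 members, beside 2374 of the 12849 genes tested. DESeq2 called 3 members higher and 0 lower, beside 309 and 336 of 12041 genes. CTNNA1 (α-catenin, the link between cadherin complexes and actin) was the member that rose. It had 422, 442 and 411 CPM in cl.21 co-culture, against 359.6, 342 and 322 CPM in cl.21 monoculture. In e.v. it had 336, 497 and 499 CPM, against 346, 325 and 381 CPM in monoculture, and in WT 435, 478 and 399.8 CPM, against 329, 361 and 409 CPM. The groups were apart in cl.21 and overlapped in e.v. and WT. Averaged over the lines the log2 fold change was 0.30 (SE 0.08, adjusted p = 0.0371), or 1.23-fold. It was lost without any of 11 of the 18 libraries, with an adjusted p of up to 0.105 without library 18 of e.v. co-culture, and in the fits without a filter and with only the groups compared.

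EPCAM had 1271, 1890 and 1611 CPM in cl.21 co-culture, against 1167, 1425 and 1096 CPM in cl.21 monoculture. In e.v. it had 1239, 1831 and 2176 CPM in co-culture, against 1508, 1304 and 1116 CPM in monoculture, and in WT 1992, 1818 and 1489 CPM, against 1510, 1343 and 1425 CPM. The EPCAM log2 fold change of 0.37 (SE 0.10) had adjusted p = 0.0561. PATJ had a log2 fold change of 0.40 (SE 0.12, adjusted p = 0.0772) and CTNND1 (p120-catenin, which stabilises E-cadherin at the membrane) one of 0.28 (SE 0.11, adjusted p = 0.14). EPCAM and PATJ stood past the threshold with DESeq2 and with the mitochondrial share as a covariate. For the members that changed with the tube, co-culture against monoculture gave no call: the log2 fold change was 0.02 for DLG1 (95% interval -0.19 to 0.22), -0.01 for MARVELD2 (-0.22 to 0.20), 0.08 for CLDN1 (-0.19 to 0.35) and -0.06 for CXADR (-0.23 to 0.11). The median over the 39 members was 0.01, beside -0.02 over all genes. Of the 47 further junction genes tested, PARD6B, a Par-complex adaptor, fell (-0.47, SE 0.12, adjusted p = 0.0469) and 0 rose.

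The third question was how the lines differed, in particular cl.21 from its control e.v. Within single cultures few members passed. In 2D, 0 members were higher and 1 lower in cl.21 than in e.v., against 0.537% and 0.467% of all genes. In monoculture 0 were higher and 0 lower, against 0.545% and 0.576% of all genes. There 7 members were at an unadjusted p under 0.05, beside 1337 of the 12849 genes tested. DESeq2 called 0 members in monoculture, beside 91 genes higher and 103 lower of 14381. In co-culture 1 was higher and 0 lower, against 0.506% and 0.662% of all genes. There 11 members were at an unadjusted p under 0.05, beside 1383 of the 12849 genes tested. DESeq2 called 0 members higher and 1 (CXADR) lower in co-culture, beside 83 and 133 of 13796 genes.

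The member lower in 2D was SCRIB, at 1.68, 1.65 and 1.70 CPM in cl.21 and 3.83, 3.67 and 4.86 CPM in e.v. This log2 fold change was -1.29 (SE 0.32, adjusted p = 0.0428), a call lost when any of the 6 libraries was left out, with an adjusted p of up to 0.215 without library 32 of e.v. 2D, and lost with DESeq2, with upper-quartile factors and without a filter. In co-culture SCRIB had 0.547, 0.260 and 1.02 CPM in cl.21 and 2.50, 1.19 and 2.52 CPM in e.v., a log2 fold change of -1.72 (SE 0.48) with adjusted p = 0.094. In monoculture it was -0.24 (SE 0.43), with cl.21 at 0.761 to 1.44 CPM and e.v. at 0.994 to 1.63 CPM.

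The member higher in co-culture was DSC3, with 3.01, 2.08 and 2.80 CPM in cl.21 and 0.227, 0 and 0.755 CPM in e.v., from 30 and 4 counts in all. The log2 fold change was 2.95 (SE 0.74, adjusted p = 0.0465); e.v. rests on so few counts that its size depends on the model. DSC3 passed the low-count filter (2.03 CPM before TMM scaling, in at least 3 libraries) through cl.21 alone, with 5 libraries of cl.21, 0 of e.v. and 0 of WT at that level. A member that enters because it is high in cl.21 had to differ, so its values here and against WT are a description and support no difference. The call was lost without any of 5 of the 6 libraries, with an adjusted p of up to 0.215 without library 18 of e.v. co-culture. DSC3 is on a list the study itself drew from these libraries, so its direction here is not independent evidence. The same order held in the other cultures, with 31 counts in cl.21 and 4 in e.v. monoculture (log2 fold change 2.62, adjusted p = 0.0963) and 31 and 3 counts in 2D (2.93, adjusted p = 0.0701). Its neighbour DSC2, the main desmocollin of simple epithelia, which lies 16025 bases away on the same strand of chromosome 18, went the other way in the 3 cultures, at -0.59, -0.50 and -0.54 in 2D, monoculture and co-culture, without passing.

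The response to the tube did not pass as different between the lines. For cl.21 against e.v. in the effect of monoculture against 2D, 0 members were higher and 0 lower, against 0% and 0% of all genes, and edgeR found 0 members and 180 of all genes at an unadjusted p under 0.05, while DESeq2 also called 0 genes. Low p-values were rare here for genes of any kind, so the lack of calls does not show that the lines responded alike. The difference was 0.21 for DLG1 (95% interval -0.28 to 0.70), -0.02 for MARVELD2 (-0.51 to 0.48), 0.09 for CLDN1 (-0.57 to 0.75) and 0.25 for CXADR (-0.17 to 0.66). For SCRIB, with few counts, it was 1.05 (-0.06 to 2.16).

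Against WT, with 9 libraries of each engineered line set against 10, more members passed, some of them in both engineered lines. SCRIB, CLDN2, CLDN15 and ANK3 were lower in both cl.21 and e.v. than in WT. Averaged over the 3 cultures, 3 members were higher and 8 lower in cl.21 than in WT, against 7.68% and 6.75% of all genes. In e.v., 3 were higher and 5 lower, against 7.53% and 7.04% of all genes. The median log2 fold change of the members was -0.11 in cl.21 and -0.06 in e.v., beside -0.01 and -0.02 over all genes. Both comparisons use the same WT libraries, so the values are given side by side and a shared direction is no independent support.

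**Figure D4:**
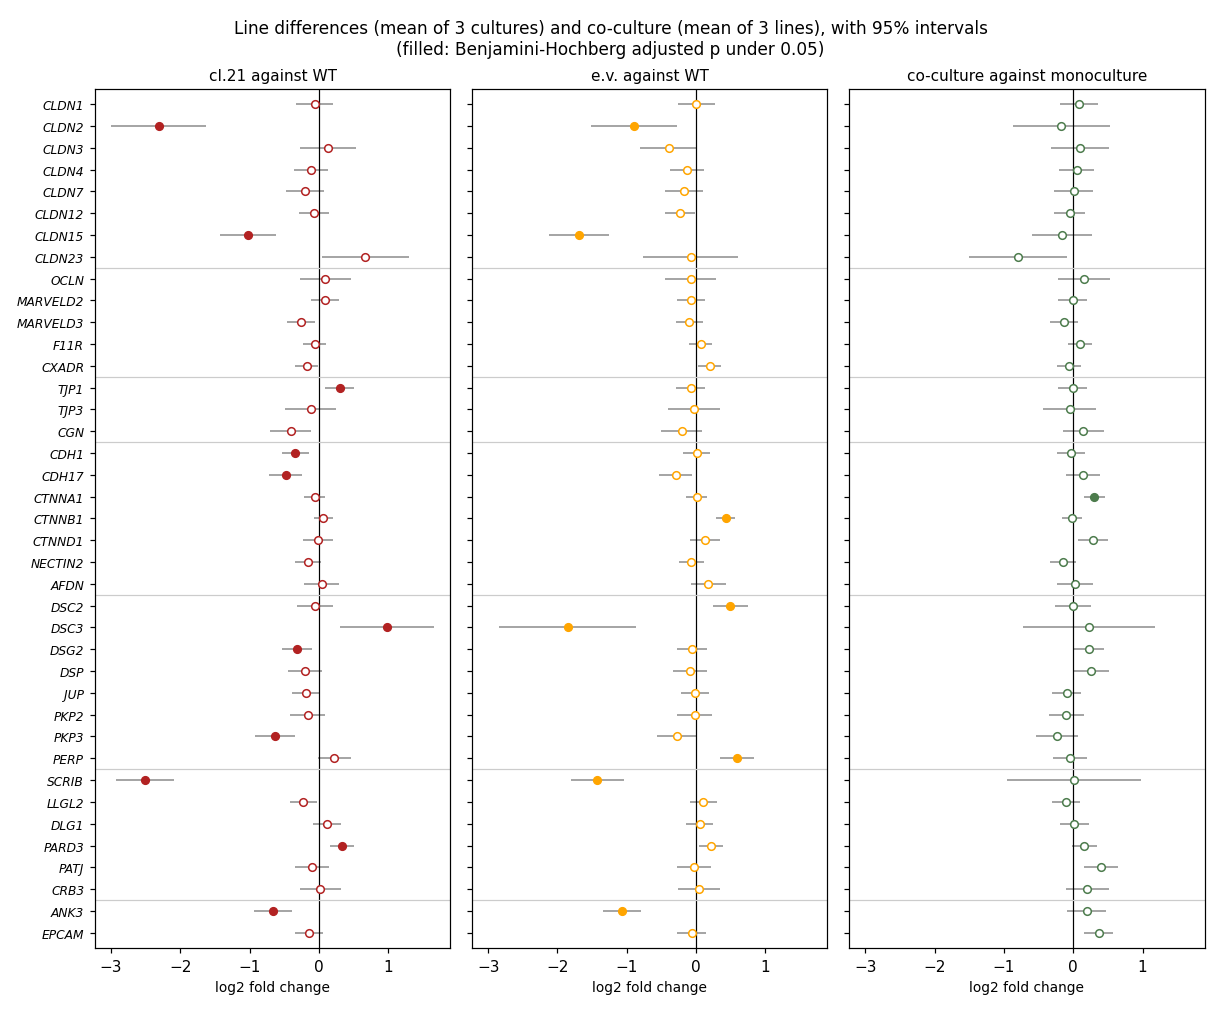
Log2 fold change (horizontal axis) of cl.21 against WT and of e.v. against WT, each averaged over the 3 cultures, and of co-culture against monoculture averaged over the 3 lines, for the 39 members (vertical axis), with 95% intervals; filled points passed the test. SCRIB and CLDN2 are farthest left in cl.21, at -2.51 and -2.31, and CTNNA1 is the member filled in the right panel.

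SCRIB had 0.260, 1.02 and 1.70 CPM (lowest, median and highest) in the 9 cl.21 libraries, 0.994, 2.50 and 4.86 CPM in the 9 e.v. libraries, and 3.21, 5.67 and 10.4 CPM in the 10 WT libraries. No cl.21 library reached the WT range, whereas e.v. and WT overlapped across cultures. The log2 fold change from WT was -2.51 in cl.21 (SE 0.21, adjusted p = 4.38e-09), or 5.69-fold lower, and -1.43 in e.v. (SE 0.19, adjusted p = 7.83e-06), or 2.69-fold lower. Both calls held in every fit that left out 1 library. SCRIB reached the level of the low-count filter in 0 libraries of cl.21, 5 of e.v. and 10 of WT. It entered the test through e.v. and WT, where it was higher, and had 59 counts in the 9 cl.21 libraries. Its cl.21 values are therefore a description, and their adjusted p is no support for a difference.

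CLDN2, which forms cation and water pores and is typical of leaky epithelia, had 1.90, 4.01 and 7.00 CPM in cl.21, 6.06, 10.00 and 24.1 CPM in e.v. and 7.92, 18.8 and 49.3 CPM in WT. The cl.21 and WT ranges did not overlap. CLDN2 had a log2 fold change of -2.31 in cl.21 (SE 0.34, adjusted p = 2.83e-05), or 4.96-fold lower, and -0.89 in e.v. (SE 0.30, adjusted p = 0.0468). The second was lost without any of 11 of the 19 libraries, with an adjusted p of up to 0.17 without library 16 of WT monoculture, with DESeq2 and with only the groups compared. CLDN2 lies within the span of MORC4 on the opposite strand of chromosome X, which had 19416 counts against 1856 for CLDN2, and whether the counting used strand is not known here, so reads of the 2 genes may not be told apart. MORC4 itself had log2 fold changes of -0.24 in cl.21 and 0.15 in e.v. against WT, with no call.

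CLDN15, another pore-forming claudin of the intestine, had 3.55, 4.71 and 9.32 CPM in cl.21, 1.84, 2.77 and 5.34 CPM in e.v. and 5.74, 9.51 and 17.1 CPM in WT. Here e.v. was the lower line, and its range lay wholly below that of WT. Against WT the log2 fold change was -1.02 in cl.21 (SE 0.20, adjusted p = 0.000788) and -1.69 in e.v. (SE 0.21, adjusted p = 4.14e-06). In 2D, ANK3 had 96.5, 78.9 and 69.6 CPM in cl.21, 71.6, 67.6 and 70.9 CPM in e.v. and 132, 109.6, 148 and 97.9 CPM in WT. Over the 3 cultures its log2 fold change was -0.67 in cl.21 (SE 0.13, adjusted p = 0.00111) and -1.07 in e.v. (SE 0.14, adjusted p = 5.59e-06).

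Ranges that did not overlap were few. Over all cultures, 2 members (SCRIB and CLDN2) were wholly lower in cl.21 than in WT and 0 wholly higher, against 0.599% and 0.459% of all genes. SCRIB entered the test through e.v. and WT, so its place in that count is a description. In e.v., 1 (CLDN15) was wholly lower and 1 (PERP) wholly higher than in WT, against 0.265% and 0.56% of all genes. Between cl.21 and e.v. 0 members were wholly lower and 0 wholly higher, against 0.607% and 0.428% of all genes.

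**Figure D5:**
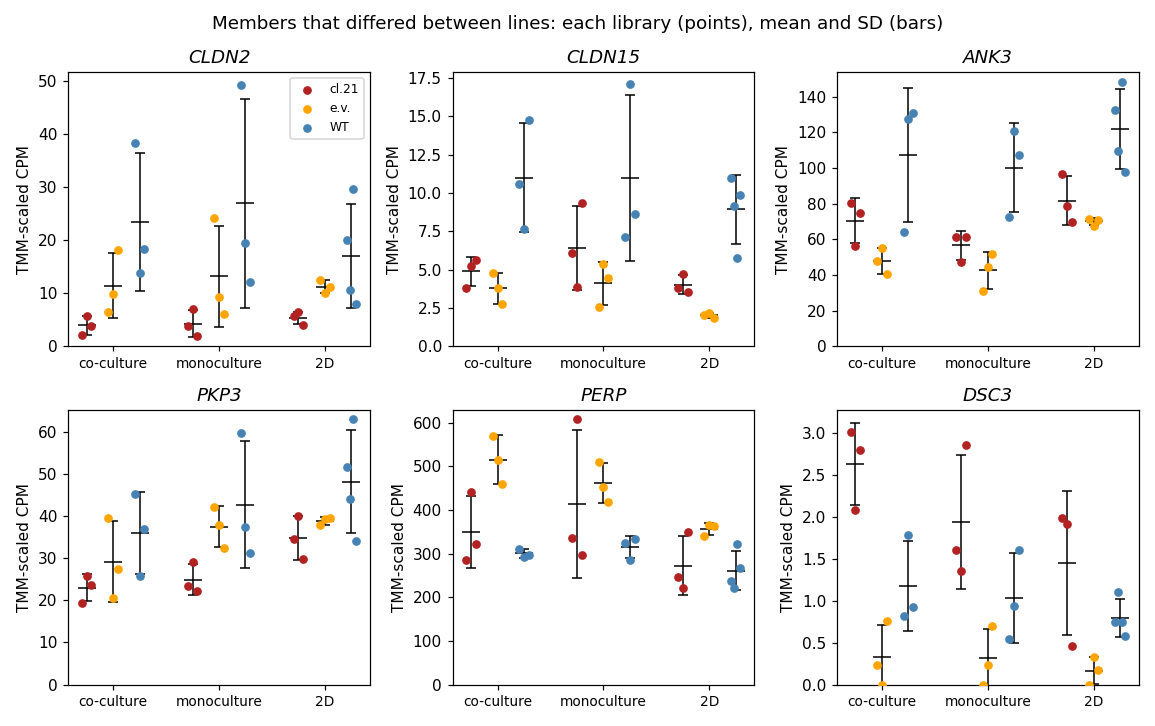
TMM-scaled CPM of CLDN2, CLDN15, ANK3, PKP3, PERP and DSC3 in each library (points, coloured by line) of co-culture, monoculture and 2D, with the mean and SD of each group (bars). CLDN2 in cl.21 stays at or below 7.00 CPM, below each WT library, and DSC3 stays below 1 CPM in each e.v. library.

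Other members passed in 1 of the 2 engineered lines against WT, and DSC3 was called in both. Between cl.21 and e.v. within a culture PERP, CTNNB1, DSC2, PKP3, CDH17, PARD3 and CDH1 had no call, with 3 libraries on each side. These tests had fewer libraries than those against WT, so a difference between the engineered lines is neither shown nor excluded. CTNNB1 was lower in cl.21 by 0.37, 0.33 and 0.38 in 2D, monoculture and co-culture (adjusted p = 0.203, 0.265 and 0.162). CTNNB1 and DSC2 did not overlap in any culture, and the others overlapped in at least 1. The share of all genes without overlap in the 3 cultures was not counted, so this is a description and supports no difference. In e.v., PERP had 571, 515 and 459 CPM in co-culture, 510.2, 453 and 419 CPM in monoculture and 341, 365 and 362 CPM in 2D, against 311, 292 and 298 CPM, 325, 286 and 333 CPM, and 237, 220.1, 321 and 266 CPM in WT. Its log2 fold change of 0.59 (SE 0.12, adjusted p = 0.00131) came with no overlap of the 9 and 10 libraries. CTNNB1 was higher in e.v. by a log2 fold change of 0.42 (SE 0.07, adjusted p = 0.000121), at 165, 136 and 154 CPM in e.v. co-culture and 115, 109 and 115 CPM in WT co-culture. DSC2 was higher in e.v. by 0.49 (SE 0.12, adjusted p = 0.00778), and DSC3, which entered the test through cl.21, had a log2 fold change of -1.85 (SE 0.48, adjusted p = 0.00983), with 11 counts in the 9 e.v. libraries and 48 in the 10 WT libraries.

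In cl.21, PKP3 (plakophilin 3, a plaque protein of desmosomes) had 19.4, 25.8 and 40.1 CPM (lowest, median and highest) over the 9 libraries, against 25.8, 40.7 and 62.9 CPM over the 10 WT libraries, and the ranges overlapped. In 2D it had 34.5, 40.1 and 29.8 CPM in cl.21, against 51.6, 44.1, 62.9 and 34.0 CPM in WT. Its log2 fold change over the 3 cultures was -0.64 (SE 0.14, adjusted p = 0.00294). Both cadherins of the adherens junction list were lower: CDH17 (liver-intestine cadherin) by 0.48 (SE 0.12, adjusted p = 0.0054) and CDH1 by 0.34 (SE 0.10, adjusted p = 0.0177) on the log2 scale. CDH1 had 492, 557 and 645 CPM (lowest, median and highest) in cl.21 and 532, 689 and 852 CPM in WT, so that the lines overlapped. PARD3, a scaffold of the Par complex, was higher by 0.33 (SE 0.08, adjusted p = 0.00908). TJP1 (ZO-1, a plaque scaffold) was higher by 0.30 (SE 0.10, adjusted p = 0.0443), DSG2 (desmoglein 2) was lower by 0.32 (SE 0.11, adjusted p = 0.0434), and DSC3, tested through cl.21 alone, had a log2 fold change of 0.98 (SE 0.33, adjusted p = 0.0469). TJP1 was lost without any of 15 of the 19 libraries (adjusted p of up to 0.102 without library 3 of WT co-culture), DSG2 without any of 13 (0.115 without library 28 of WT co-culture) and DSC3 without any of 14 (0.121 without library 24 of cl.21 monoculture). Without a filter TJP1 and DSG2 were lost, with only the groups compared TJP1, and with DESeq2 DSC3.

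Of the 47 further junction genes tested, 4 were higher and 7 lower in cl.21 than in WT, and 5 higher and 3 lower in e.v., beside 7.68% and 6.75% of all genes in cl.21 and 7.53% and 7.04% in e.v. LIN7A, a scaffold that binds the Crumbs partner PALS1, separated cl.21 from e.v. in each culture. It had 25.4, 8.59 and 25.7 CPM in cl.21 co-culture, against 146, 104 and 79.0 CPM in e.v. co-culture. The log2 fold change was -2.46 in co-culture (SE 0.41, adjusted p = 0.00158), -2.66 in monoculture (SE 0.41, adjusted p = 0.000687) and -2.41 in 2D (SE 0.40, adjusted p = 0.000953). GJA1 (connexin 43), with 134 counts over the 28 libraries, was lower in both lines than in WT, at -3.44 in cl.21 and -2.13 in e.v. With so few counts GJA1 may have passed the low-count filter through WT alone, so these values are a description and support no difference. VIM, a mesenchymal filament gene with 265 counts in all, had log2 fold changes from WT of -2.41 in cl.21 and -0.72 in e.v. It too may have passed the filter through the lines where it was high, so these values are a description. The epithelial markers KRT19 (-0.49) and KRT20 (-2.08) were lower in cl.21 than in WT, and their part in the junction results was not tested. KRT20 had 345 counts in all and may have entered in the same way as VIM.

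The 16 members with no call were CLDN3, CLDN4, CLDN7, CLDN23, OCLN, TJP3, CGN, CTNND1, NECTIN2, AFDN, DSP, JUP, PKP2, LLGL2, CRB3 and EPCAM. CLDN4 had 62.8 to 147 CPM over the 28 libraries, CGN 70.3 to 191 CPM, CTNND1 115 to 247 CPM, DSP 476 to 1048 CPM, LLGL2 25.2 to 62.2 CPM and EPCAM 1096 to 2176 CPM. CLDN23 had 239 counts in all and was at 0 in 1 library of e.v. co-culture, so that only large differences could be seen at this depth. The other 9, from 10.1 CPM for CRB3, the apical transmembrane protein of the Crumbs complex, to 126 CPM for AFDN, the actin linker of nectins, gave differences that did not pass in any of the 10 comparisons.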

How the data were processed

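The deposited table held raw counts per Ensembl gene, made by the authors from QuantSeq 3′ mRNA libraries sequenced on an Illumina NextSeq500; the submitters' processing notes name GRCh38, and which aligner, counter, strand setting and annotation were used is not stated in the sources at hand. Of 32 libraries 28 were used; 4 single WT libraries had no replicate. Symbols came from a names table (56104 rows) and GENCODE 29 (427 rows); 0.0679% of counts were in rows without a name. Depth was 4144373 to 6686797 counts per library, and intervals cover the spread between libraries. Genes were filtered with filterByExpr (12849 of 30178 kept), scaled by TMM (factors 0.861 to 1.18) and tested with edgeR 4.0.16 in R 4.3.3 (glmQLFit, 9 group coefficients, 19 residual degrees of freedom, Benjamini-Hochberg). Tests were checked on simulated data. Replicates were compared in 30 pairs: the chi-square per gene was 4.04 to 65.2, where sampling noise gives about 1, so no pair was the same library entered again. Separate libraries made from the same RNA could not be recognised this way. Alternatives were DESeq2 1.42.0, no filter, RLE and upper-quartile factors, only the groups compared, the mitochondrial share as a covariate, and leaving out each library.

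The members and gene lists were chosen with earlier results of these data known. All members were accounted for; values per library and full statistics were given for members past the threshold in at least 1 of 10 comparisons, up to 4 for each role group and comparison, with at most 1 member per role group that never passed as a contrast, and up to 4 genes per comparison of the wider junction list by smallest adjusted p. DLG3, DLG5, ERBIN, STK11, ESAM and VCL were named after their values were seen. The spans of 6 members meet that of another annotated gene (CLDN2, CLDN7, CLDN12, MARVELD3, CTNNB1 and CRB3), and their counts may include reads of it.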

Additional observations from a re-analysis of the deposited data

Results flagged for a closer look

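In 4 WT 2D libraries a single value stood apart from the other 3 for 2 of the 39 members; chance flags about 1 in 20 such groups. EPCAM was at 1510 CPM in library 12, against 1270 to 1290 CPM in the other 3 libraries. CLDN23 was at 1.16 CPM in library 27, against 2.05 to 2.22 CPM, from 6 counts against 11 to 13. Neither member was called in any comparison.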

How the results depend on the processing

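No paired analysis was possible because the labels number each library once, so that no 2 groups share a replicate number. Of 41 calls of a member in a comparison, 28 remained in all 6 alternatives, 26 remained when each library was left out in turn, and 0 changed direction. Of the calls lost, 9 were lost without a filter, 5 with only the groups compared, 4 with DESeq2, 2 with upper-quartile factors, 1 with RLE factors and 0 with the mitochondrial share as a covariate.

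Counts of members that moved were as follows. With DESeq2, 1 was higher in WT monoculture against 2D, 3 were higher in co-culture against monoculture, 0 were lower in cl.21 against e.v. in 2D, and in co-culture 0 were higher and 1 lower. Without a filter, 0 were higher in co-culture against monoculture; for cl.21 against e.v., 1 was higher in 2D, 2 were higher and 1 lower in monoculture, and 1 lower in co-culture. With RLE factors 1 was higher in WT monoculture, and with upper-quartile factors 0 were lower in cl.21 against e.v. in 2D. With only the groups compared, 0 were higher in co-culture against monoculture, 3 were lower in cl.21 against e.v. in 2D, 0 were higher in cl.21 against e.v. in co-culture, and 3 were lower in e.v. against WT. With the mitochondrial share as a covariate, 1 was higher and 5 lower in WT monoculture, 7 lower in e.v. and 7 lower in cl.21 monoculture (AFDN among them in each line), 3 higher in co-culture against monoculture, 1 higher in cl.21 against e.v. in 2D, 1 higher in monoculture and 1 lower in co-culture. Calls over all genes moved with these settings as well. For co-culture against monoculture, 105 genes were higher in the fit reported above, 309 with DESeq2 and 673 with this covariate. The numbers without a filter and with only the groups compared were 165 and 9.

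Leaving out 1 library gave, for monoculture against 2D, 2 to 8 members higher and 2 to 3 lower in cl.21, 3 to 6 higher and 3 to 4 lower in e.v., and 0 to 1 higher and 2 to 3 lower in WT. It gave 0 to 3 higher in co-culture against monoculture, and for cl.21 against e.v. 0 to 1 higher and 0 to 0 lower in 2D and 0 to 1 higher in co-culture. Against WT it gave 1 to 3 higher and 7 to 10 lower in cl.21, and 3 to 4 higher and 4 to 6 lower in e.v. The cause was not tested. SCRIB, DSC3 and CLDN23, at 512, 151 and 239 counts in all, were limited by depth.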

Other observations

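The 4 WT libraries that entered no comparison came 1 each from the media labelled YCFAinul and YCFAmuc in monoculture and from culture labelled Poop on each of these media, so their values stand without replicates. TJP1 was at 96.6 CPM in the YCFAinul and 90.8 CPM in the YCFAmuc monoculture, and at 96.1 and 97.4 CPM in the Poop cultures on YCFAinul and YCFAmuc. All 4 were below the 28 libraries of the report, where TJP1 had at least 107 CPM. CXADR was at 612 CPM in the YCFAinul monoculture and 629 CPM in the Poop culture on YCFAinul, above the 587 CPM of the highest of the 28 libraries. CLDN12 was at 46.1 CPM in the YCFAinul monoculture, 45.0 CPM in the YCFAmuc monoculture and 41.8 CPM in the Poop culture on YCFAinul, above the highest of the 28 at 38.8 CPM. MARVELD2, at 23.5 CPM in the Poop culture on YCFAmuc, was just below the lowest of the 28 at 23.6 CPM. In each of the 4 libraries 2 or 3 of the 39 members lay outside the range of the 28, beside 1.56% to 2.53% of all genes above and 2.54% to 3.39% below it. These CPM were scaled over 32 libraries and differ slightly from those of the report.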
